A study of Mus musculus with 13 samples.

Results

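Group C comprised 3 arrays, each of quadriceps RNA from a different male C57Bl/6 mouse of 4 months, out of 13 arrays in the series. The members were chosen by the genotype label C alone, and every gene with a probe set of its own was then ranked by its mean signal over these 3 arrays, which gave 17097 ranked genes. The labels do not spell out what C stands for. The other arrays came from mice labelled SKM-KO (3 arrays), Wt (3 arrays) and SKM-Tg (4 arrays), of the same strain, sex and age. The series concerns the loss and the gain of DOR, the protein of the gene Trp53inp2, in skeletal muscle. All mice had standard chow and water at will, and the muscles were frozen in liquid nitrogen straight after removal. The labels used here name no exercise, fasting, time of day, Cre driver or transgene promoter. The values are log2 perfect-match probe signals, so a difference of 1 is a factor of 2. Each gene was read from its brightest probe set over all 13 arrays. Probe sets differ in how strongly they bind, so the ranks order signals and not transcript numbers, and a difference between animals is a difference within 1 probe set.

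The quadriceps of the mouse is a largely fast muscle. Fast fibres contract quickly with fast isoforms of myosin, troponin and the calcium pump, and draw on creatine phosphate and glycogen. Slow fibres use their own set of sarcomere isoforms, are rich in mitochondria and burn fat. Between the fibres lie capillaries, fibroblasts, nerve endings, satellite cells and resident macrophages, whose RNA is a small share of a whole-muscle extract.

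The promoters of 4 sarcomere genes and of the most variable gene, Atf3, are shown. They were chosen because the slow genes varied together between the C animals, while their fast counterparts, nearer the top of the signal scale, varied little. Tnnt1 and Tnnc1 encode the slow isoforms of troponin T and C, Tnnc2 the fast troponin C, Myh4 the fast myosin heavy chain IIb, and Atf3 a stress-induced transcription factor. The windows hold the 250 bases before the annotated start, from RefSeq on GRCm38.p6, written 5′ to 3′ on the gene's strand. They lie at chr7:4515976-4516225 (minus strand) for Tnnt1, chr14:31208062-31208311 (plus) for Tnnc1, chr2:164779735-164779984 (minus) for Tnnc2, chr11:67237562-67237811 (plus) for Myh4 and chr1:191183334-191183583 (minus) for Atf3. Capitals mark matches on either strand to TATAAA, the E-box CANNTG, the TEAD site CATTCC, the cyclic AMP element TGACGNCA, the MEF2 box or the CArG box.
Tnnt1: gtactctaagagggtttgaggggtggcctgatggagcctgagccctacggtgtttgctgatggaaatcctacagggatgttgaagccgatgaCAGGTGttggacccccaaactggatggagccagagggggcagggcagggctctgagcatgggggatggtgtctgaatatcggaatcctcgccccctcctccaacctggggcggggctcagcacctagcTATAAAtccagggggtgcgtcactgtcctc
Tnnc1: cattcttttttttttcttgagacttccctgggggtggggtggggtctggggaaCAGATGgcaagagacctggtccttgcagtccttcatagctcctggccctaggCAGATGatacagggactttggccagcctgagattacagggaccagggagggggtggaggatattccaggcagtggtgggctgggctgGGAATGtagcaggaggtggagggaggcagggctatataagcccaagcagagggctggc
Tnnc2: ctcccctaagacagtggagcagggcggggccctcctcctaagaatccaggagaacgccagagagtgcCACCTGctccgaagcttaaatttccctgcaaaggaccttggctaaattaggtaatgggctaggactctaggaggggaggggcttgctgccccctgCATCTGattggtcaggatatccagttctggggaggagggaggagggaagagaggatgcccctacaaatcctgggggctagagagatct
Myh4: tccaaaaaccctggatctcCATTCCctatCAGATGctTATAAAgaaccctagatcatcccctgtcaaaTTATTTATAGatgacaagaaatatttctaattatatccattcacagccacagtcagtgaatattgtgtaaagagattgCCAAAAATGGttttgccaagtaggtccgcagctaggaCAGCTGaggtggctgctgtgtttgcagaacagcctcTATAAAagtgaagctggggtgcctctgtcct
Atf3: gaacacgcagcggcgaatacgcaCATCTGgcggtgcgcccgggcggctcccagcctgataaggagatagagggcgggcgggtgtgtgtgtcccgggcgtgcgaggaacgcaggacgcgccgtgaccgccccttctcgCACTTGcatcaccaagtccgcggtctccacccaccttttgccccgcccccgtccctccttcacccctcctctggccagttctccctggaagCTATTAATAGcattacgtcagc
Tnnt1 held an E-box and a TATAAA, Tnnc1 2 E-boxes and a CATTCC on the opposite strand, and Tnnc2 2 E-boxes. Myh4 held 8 matches, among them a MEF2 box, within which a TATAAA on the opposite strand lies, and a CArG box. Atf3 held 2 E-boxes and a MEF2 box. In 32851 promoter windows of this length, 66.2% held CANNTG, 12.4% TATAAA, 12.6% CATTCC, 2.92% a MEF2 box, 2.75% TGACGNCA and 1.47% a CArG box. Of 18 windows of 13 slow genes, 18 held CANNTG, 4 TATAAA, 3 CATTCC, 2 a MEF2 box, 1 a CArG box and 0 TGACGNCA. Of 11 windows of 10 fast genes, 8 held CANNTG, 3 TATAAA, 4 CATTCC, 3 a MEF2 box, 1 a CArG box and 0 TGACGNCA. These letters are a description of the windows and not of factor binding.

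The 3 arrays of group C had median signals between 4.87 and 4.94 over all probe sets and correlated at 0.9945 to 0.9969 over all genes. C 2 and C 3 were the closest pair: 8 genes differed between them by 1 or more, against 60 between C 1 and C 2 and 44 between C 1 and C 3. Array C 1 stood apart in small steps over many genes above background. It held the lowest of the 3 values for 54.3% of them, against 23.5% for C 2 and 22.2% for C 3. The median of C 1 minus the gene's own C mean was −0.0369 over these genes. Over all genes that median was 0.0094, so C 1 was not lower there. Trp53inp2 itself was bright in group C, at 11.06 in C 1, 11.19 in C 2 and 11.15 in C 3, rank 267. It lay between 11.001 and 11.46 in Wt, between 11.03 and 11.28 in SKM-Tg and between 8.58 and 8.99 in SKM-KO. The SKM-KO arrays were below the others at this probe set, while SKM-Tg overlapped Wt and C, so the probe set does not check the SKM-Tg label.

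Gene means in C ran from 2.299 to 12.92 with a median of 5.56. To see where signal without transcript ends, 52 genes of distant tissues (milk, lens, sperm, egg, pituitary, kidney tubule and others) were read the same way. Their C means had a median of 4.38 and a 95th percentile of 6.36, and that percentile was taken as the bound of the near-background range. By it, 10586 genes (61.9%) were near background and 6511 (38.1%) above, the latter with a median of 7.92. Of 12829 probe sets above this bound, 3010 had no single gene symbol and were not ranked. Just inside the near-background range lay Tceanc2 at 6.3633 and Dab2 at 6.3629, and just above it Orc4 at 6.3636 and 2700049A03Rik at 6.3641. The brightest of the distant-tissue genes was Prm1, a sperm protamine, at 7.06 in C 1, 6.79 in C 2 and 6.66 in C 3. The dimmest was Umod, of the kidney tubule, at 2.66, 2.65 and 2.57. A low signal therefore spans a wide range between probe sets, and a gene near background is one whose signal cannot be told from that of such genes.

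**Figure D1:**
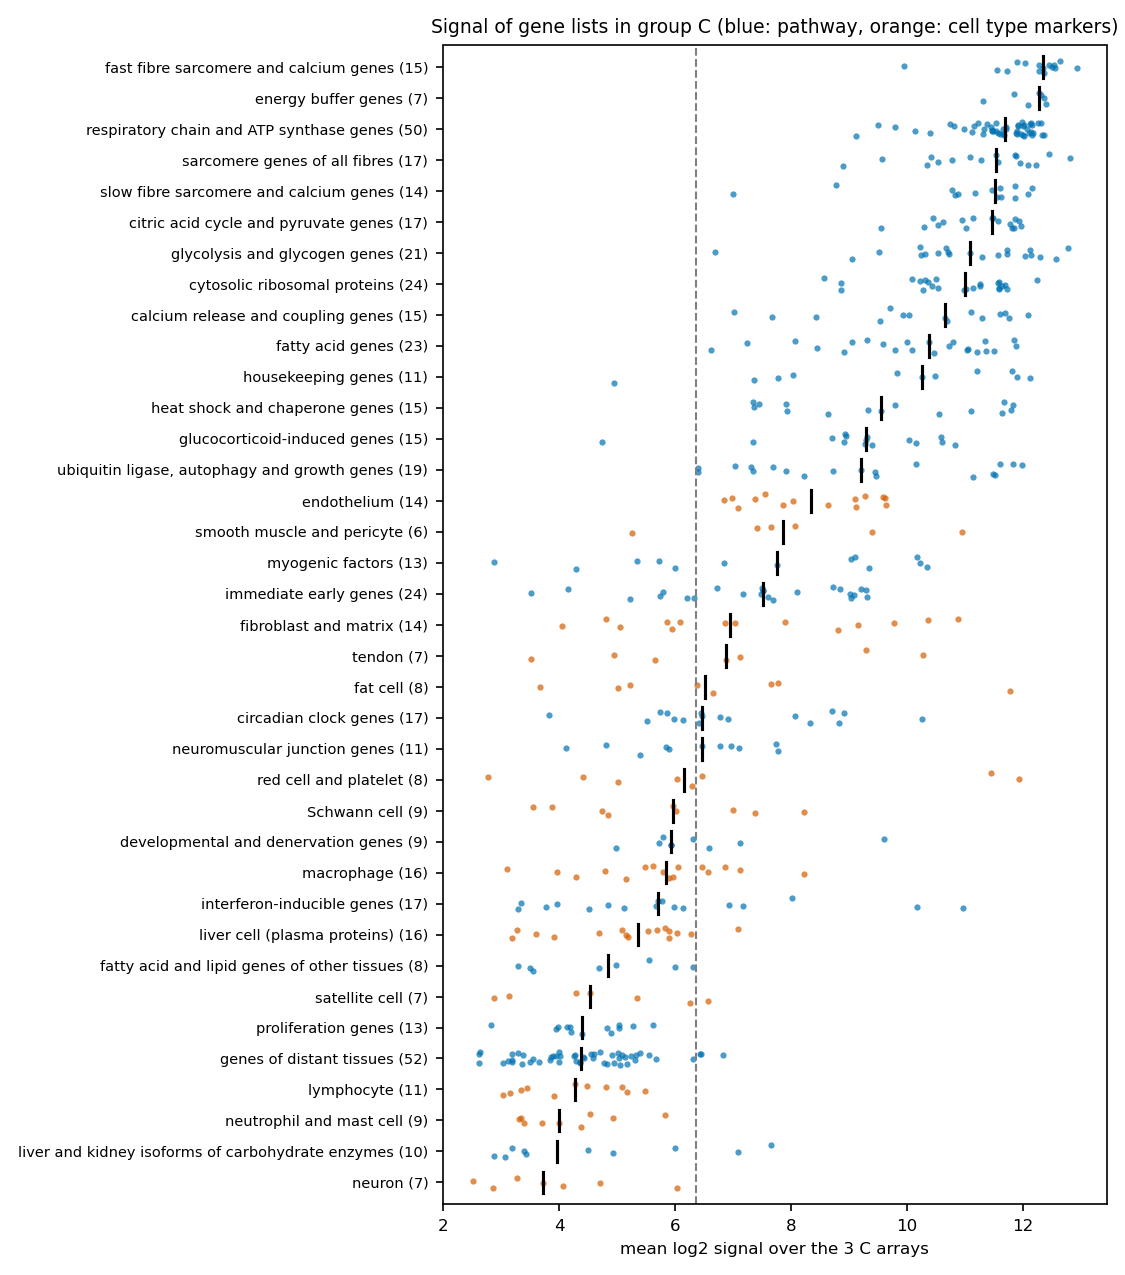
Mean log2 signal over the 3 C arrays (horizontal axis) of each measured gene (points) in the gene lists, with the number measured in brackets, list medians as black bars and the near-background bound of 6.36 as a dashed line. The fibre and energy lists lie right of the bound throughout, and the lymphocyte, neutrophil and mast cell, neuron and proliferation lists lie left of it throughout.

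The tissue label was checked against fibre markers. All 9 measured markers of skeletal muscle fibres (Acta1, Myh1, Myh2, Myh4, Ckm, Mb, Pygm, Ryr1 and Ttn) were among the 100 brightest genes, with a median of 12.39. The 9 lists of sarcomere, calcium and energy genes held 179 measured genes, 1.05% of all genes and 2.75% of those above background. They made up 68 of the 100 brightest genes (SD 2.08 percentage points over the single arrays) and 17 of the 20 brightest. All 179 were above background and 167 lay in the brightest 10% of genes, whose lower bound was 9.002. Of the 100 brightest genes by mean, 87 were in the top 100 of every C array, and of the 20 brightest, 15 were in every top 20.

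Among the ranked genes, the brightest signal was that of Atp2a1, the fast-fibre calcium pump SERCA1, at 12.93 in C 1, 12.92 in C 2 and 12.92 in C 3. Skeletal alpha-actin, Acta1, followed at 12.82, 12.80 and 12.81, and the glycolytic enzyme Gapdh at 12.80, 12.77 and 12.76. These 3 genes held ranks 1, 2 and 3 in each array separately. The adult fast myosin heavy chains came next: Myh2 (IIa) at 12.58, 12.72 and 12.59, Myh4 (IIb) at 12.64, 12.51 and 12.48, and Myh1 (IIx) at 12.53, 12.54 and 12.54. Myh4 was highest in C 1 and Myh2 in C 2. For Myh1, the 3 other probe sets differed on which animal was highest, at 12.04, 11.95 and 11.83, at 12.19, 12.13 and 12.04, and at 8.10, 8.28 and 8.35. Probe sets of close paralogues, such as these myosins or the globins, can share sequence, so the split of signal between them is uncertain. Also within the 20 brightest were Vdac1 (12.59), the outer mitochondrial membrane channel, Aldoa (12.57), Tnnc2 (12.50), Pvalb (12.45), Tpm2 (12.45), Ckm (12.39), Fabp3 (12.36), Atp5a1 (12.36), Tpm1 (12.35), Tnni2 (12.35), Ndufv1 (12.33) and Atp5c1 (12.30). The members of the 20 on none of the fibre and energy lists were Vdac1, Hnrnpab (12.39), an RNA-binding protein, and Ramp2 (12.31), a receptor subunit for adrenomedullin. For Hnrnpab, 4 other probe sets gave means between 5.51 and 9.67, and for Ramp2 the other probe sets gave 8.79 and 10.79, so both ranks belong to 1 probe set. The adenine nucleotide carrier Slc25a4, at 12.30, came just after the 20th.

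The fast fibre list was bright as a whole: 15 of 15 measured genes were in the top 10% and 12 in the top 100, with a median of 12.35. The calcium buffer parvalbumin, Pvalb, measured 12.54 in C 1, 12.41 in C 2 and 12.41 in C 3. Fast troponin C, Tnnc2, measured 12.57, 12.55 and 12.39. The dimmest members were Casq1 (11.55), the calcium store protein of the reticulum, and Mylk2 (9.95), the skeletal light chain kinase. The slow list was nearly as bright, with 14 of 14 above background, 12 in the top 10%, 4 in the top 100 and a median of 11.51. Its brightest members were Ankrd2 (12.15, rank 33), a stretch-responsive sarcomere protein, and Myl3 (12.08, rank 44), the slow essential light chain. Its dimmest were cardiac calsequestrin Casq2 (8.78) and phospholamban Pln (7.004), the inhibitor of the slow calcium pump.

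Among sarcomere genes of all fibres, 17 of 17 were above background with a median of 11.52. Tpm2 (12.45), Nrap (12.22), titin Ttn (12.08), Tcap (11.95) and Actn2 (11.87) led after Acta1. Cardiac actin Actc1 (9.57) and Klhl40 (8.89) were the dimmest. Of 15 genes of calcium release and its coupling to the membrane, 15 were above background with a median of 10.65. The release channel Ryr1 measured 12.14 in C 1, 12.05 in C 2 and 12.06 in C 3, and Tmem38a, Srl, Trdn and Hrc lay between 11.29 and 11.76. The chloride channel Clcn1 (7.67) and the coupling protein Stac3 (7.02) were the dimmest of that list.

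Genes of development, denervation and the synapse were dim by comparison. Of 9 measured developmental and denervation genes, 3 were above background: the stress gene Gadd45a (9.61), the atrial light chain Myl4 (7.11) and embryonic myosin Myh3 (6.58). Perinatal myosin Myh8 measured 5.36 in C 1, 4.79 in C 2 and 4.78 in C 3, and the fetal receptor subunit Chrng 5.85, 5.82 and 5.72. The adult subunit that replaces it, Chrne, was above background at 7.55, 7.86 and 7.81. In all, 6 of 11 neuromuscular junction genes were above background, from Rapsn (7.78) to Musk (6.46), the receptor kinase of the synapse, which measured 5.87 in C 1, 6.70 in C 2 and 6.81 in C 3. Of the myogenic factors, Myf6, the one that predominates in adult fibres, was the brightest at 10.33, 10.35 and 10.33. The MEF2 factors Mef2a (10.21), Mef2c (10.17) and Mef2d (9.10) and serum response factor Srf (9.03) followed. Myod1 measured 7.28, 6.76 and 6.49, Myog was near background at 5.72, and Myf5, at 2.87, held rank 16541.

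Energy metabolism was the other block of bright genes. Of 7 energy buffer genes, 6 were in the top 100 with a median of 12.27: the creatine kinases Ckm (12.39) and Ckmt2 (12.08), Fabp3, Slc25a4, the oxygen store myoglobin Mb (12.27) and carbonic anhydrase Car3 (11.85). Adenylate kinase Ak1 (11.31) was the dimmest of them. All 50 respiratory chain and ATP synthase genes lay in the top 10% and 23 in the top 100, with a median of 11.68 and a median SD of 0.038. Complexes I to V were all represented near the top, by Ndufv1 (12.33), Sdha (12.13), Uqcrq (12.11), Cox5b (12.16) and Atp5a1 (12.36). The general isoform Cox8a (9.13) was the dimmest of the list, while the muscle isoform Cox8b (12.16) was among its 6 brightest. The citric acid cycle and pyruvate list was similar, with 17 of 17 in the top 10%, a median of 11.46, and Mdh2 (11.96), Idh3g (11.92) and citrate synthase Cs (11.84) among its brightest.

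Of 21 glycolysis and glycogen genes, 21 were above background and 20 in the top 10%, with a median of 11.08. Gapdh, Aldoa, the phosphofructokinase subunit Pfkm (12.29), glycogen phosphorylase Pygm (12.13), Ldha (12.12) and Eno3 (12.04) led. The muscle fructose bisphosphatase Fbp2 measured 9.58 in C 1, 8.71 in C 2 and 8.85 in C 3, with the largest SD of that list at 0.46, and the branching enzyme Gbe1 was its dimmest at 6.68. The isoforms of these enzymes used by liver, kidney or brain were the reverse: 2 of 10 were above background, Pfkp (7.65) and Pfkl (7.09), and the list median was 3.97. Gluconeogenic Pck1 measured 2.88 in C 1, 2.92 in C 2 and 2.85 in C 3, and Fbp1 3.06, 3.39 and 2.74.

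Fatty acid handling was bright in its muscle genes, with 23 of 23 above background, 18 in the top 10% and a median of 10.37. Lipoprotein lipase Lpl, which frees fatty acids from circulating fat, measured 11.79 in C 1, 11.98 in C 2 and 11.86 in C 3. Pdk4, the kinase that holds back pyruvate oxidation, measured 11.83, 11.81 and 11.86, rank 86. The oxidation enzymes Hadh (11.50), Acadl (11.36) and Acadvl (11.35) followed, and the fat droplet lipase Pnpla2 (6.63) was the dimmest of the list. Of 8 lipid genes of other tissues, 0 were above background. The closest to the bound was the liver isoform Cpt1a (6.31), and Fabp1 and the bile acid enzyme Cyp7a1 were at 4.70 and 3.29.

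Genes that every cell uses were spread widely. The 24 ribosomal protein genes were all above background with a median of 10.999, from Rps2 (12.25) to Rpl13 (8.57). Of 11 housekeeping genes, 10 were above background, with Actb at 11.90 and Hprt at 8.04, while Gusb, a lysosomal enzyme of most cells, measured 4.99 in C 1, 5.01 in C 2 and 4.86 in C 3. Near-background signal thus also occurred in a gene that most cells use. The proliferation list was near background in 13 of 13 genes, with a median of 4.40 and Aurka the brightest at 5.62.

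Protein breakdown and growth genes were above background in 19 of 19 cases, with a median of 9.20. The ubiquitin ligases of muscle wasting were bright: Fbxo32 (atrogin-1) measured 12.01 in C 1, 11.86 in C 2 and 12.07 in C 3, and Trim63 (MuRF1) 11.29, 11.48 and 11.70. The autophagosome genes Map1lc3a (11.83) and Gabarapl1 (11.51), of the protein family that DOR binds, and the mitophagy receptor Bnip3 (11.60) were close to them. Trp53inp1, the paralogue of Trp53inp2, measured 7.29, 7.48 and 8.28, and follistatin Fst (6.39) and Foxo1 (6.40) lay just above the bound. Of 15 chaperone genes, 15 were above background. The small heat shock proteins Hspb7 (11.82) and Hspb1 (11.80) and the crystallin Cryab (11.63) led, and Hspa1b, the inducible form, was the dimmest by its mean (7.35).

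Among cell types between the fibres, endothelium was read by markers that were above background in 14 of 14 cases, 6 of them in the top 10%, with a median of 8.34. VE-cadherin, Cdh5, measured 9.65 in C 1, 9.62 in C 2 and 9.66 in C 3, and Pecam1 9.03, 9.20 and 9.12. In such bulk tissue, fewer cells of a type and less RNA per cell cannot be told apart. Of 6 smooth muscle and pericyte markers, 5 were above background, led by Rgs5 (10.95), a pericyte signalling regulator, and smooth muscle myosin Myh11 (9.39). Of 14 fibroblast and matrix genes, 8 were above background, led by decorin Dcn at 10.9997, 10.89 and 10.74 and by the collagens Col3a1 (10.36) and Col1a1 (9.77). The collagen Col1a2, read through 1 probe set, was near background at 4.81. Pdgfra, the receptor that defines fibro-adipogenic cells, was near background at 4.06. Tendon genes were above background in 4 of 7, with Thbs4 (10.27) and Fmod (9.29) bright and the defining factors Scx (4.94) and Mkx (3.51) near background.

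Satellite cell markers were above background in 1 of 7, Chodl (6.56), while Pax7 measured 4.26, 4.37 and 4.25. Fat cell markers were above background in 5 of 8. Fabp4, which capillary endothelium also expresses, was in the top 100 at 11.87, 11.75 and 11.68, and Scd1 (7.77), Lipe (7.65), Pparg (6.65) and Retn (6.38) also passed. Adiponectin Adipoq (5.55 in C 1, 4.80 in C 2 and 5.34 in C 3), leptin Lep (3.67) and Ucp1 (5.01) were near background. Macrophage markers were above background in 5 of 16, namely Lyz2 (8.21), Mrc1 (7.11), Ctss (6.87), C1qc (6.56) and Tyrobp (6.47), and Adgre1 and Itgam were at 3.97 and 3.11. None of the 11 lymphocyte, 9 neutrophil and mast cell or 7 neuron markers measured passed the bound, with list medians of 4.27, 4.00 and 3.73. Of 9 Schwann cell markers, 3 passed, Pmp22 (8.22), Mbp (7.37) and Mal (6.99), whereas Sox10 (4.73) did not. Of 8 red cell and platelet genes, the globins Hba-a1 (11.79 in C 1, 11.94 in C 2 and 12.07 in C 3) and Hbb-b2 (11.45, 11.47 and 11.41) were bright. Of the rest, the platelet gene Pf4 (6.46) passed the bound and the red cell enzyme Alas2 (6.30) did not.

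Signal and regulation lists were in the middle range. Glucocorticoid-induced genes were above background in 14 of 15 with a median of 9.29, led by Klf9 (10.83), Cdkn1a (10.59) and Zbtb16 (10.59). Clock genes were above background in 11 of 17; Rora (10.26) and Nr1d2 (8.91) were the brightest, and Cry1 (3.82) the dimmest. Interferon-inducible genes were above background in 5 of 17, and the class I molecules H2-K1 (10.96) and H2-D1 (10.17) stood well above the rest, since Rsad2 was next at 8.02. Immediate early genes were above background in 17 of 24 with a median of 7.52, from Btg2 (9.31) and Ccn1 (9.29) down to Fosb (3.52).

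Most genes varied little between the 3 animals. Over the 6511 genes above background the median SD was 0.0870, the 75th percentile 0.146 and the 95th 0.301, and 95 genes (1.46%) had an SD of 0.5 or more. That count was 29 without C 1, 117 without C 2 and 150 without C 3. An SD from 3 arrays is itself loose, with a 95% interval of 0.521 to 6.28 times its value. The median SD fell from 0.110 in the dimmest 20% of these genes to 0.0623 in the brightest 20%, whose signals lie closest to the top of the scale. The same genes had a median SD of 0.0874 in SKM-KO, 0.181 in SKM-Tg and 0.272 in Wt, with 43 (0.660%), 165 (2.53%) and 1151 (17.7%) genes at 0.5 or more. The Wt spread moved with single arrays: without Wt 2 its median SD was 0.161 and 368 genes passed, without Wt 1 it was 0.356 and 2189 passed, and without Wt 3 it was 0.220 and 695 passed. Of the 95 genes in C, 73 (76.8%) were lowest in C 1 and 18 (18.9%) highest there, and 4 were neither. Of all genes above background, 54.3% were lowest in C 1 and 25.5% highest there.

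**Figure D2:**
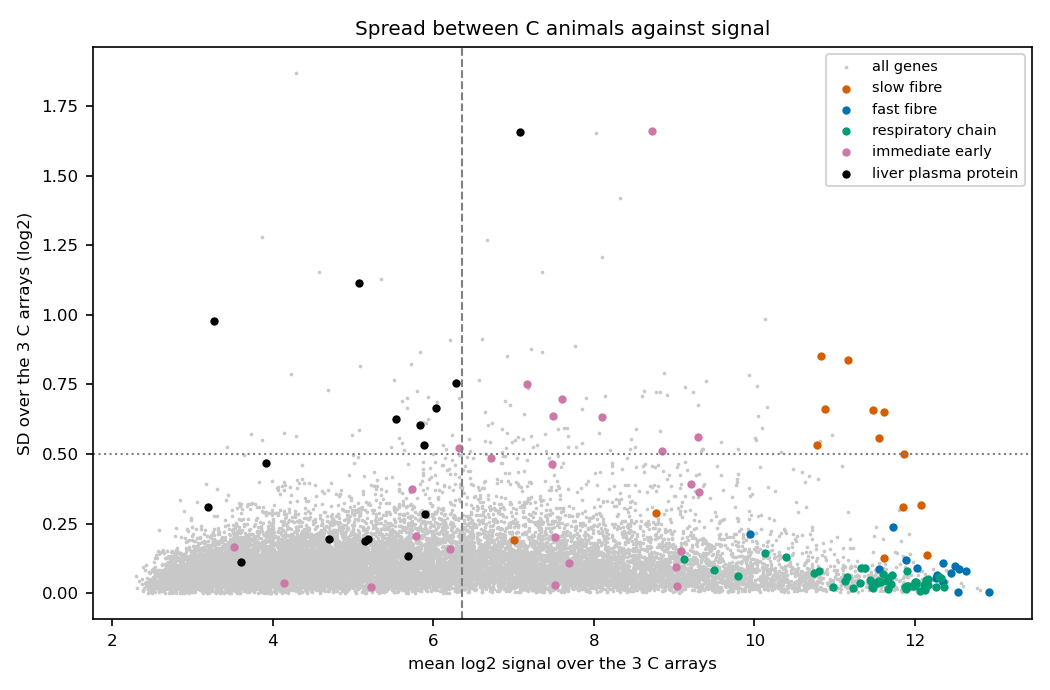
SD over the 3 C arrays (vertical axis, log2) against mean log2 signal (horizontal axis) for all genes in grey, with 5 lists in colour, the near-background bound of 6.36 dashed and an SD of 0.5 dotted. Respiratory chain and fast fibre genes lie at the bottom right, and 8 slow fibre genes, with means of 10.78 to 11.86, lie at or above the dotted line.

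Among the fibre and energy lists, the slow fibre genes varied most. Of the 14 measured, 8 had an SD of 0.5 or more, and their median SD was 0.515, against 0.086 for the fast list and 0.067 for the sarcomere genes of all fibres. The fast list lay nearer the top of the scale, where SDs were smaller, with a median signal of 12.35 against 11.51 for the slow list. The median signal of the sarcomere genes of all fibres was 11.52. The largest SDs of the fast list were 0.24 (Actn3, 11.72) and 0.21 (Mylk2, 9.95). The brightest slow gene, Ankrd2 (12.15), had an SD of 0.14. How far the contrast goes with signal level was not tested. Without C 1 the count of slow genes was 0, and without C 2 or C 3 it was 8. Slow troponin T, Tnnt1, measured 9.87 in C 1, 11.51 in C 2 and 11.10 in C 3 (SD 0.85, n = 3), a 3.12-fold span. Slow troponin I, Tnni1, measured 10.21, 11.78 and 11.50 (SD 0.84), and slow troponin C, Tnnc1, 10.86, 12.05 and 11.92 (SD 0.65). In each of these genes C 1 was well below the other animals, and C 2 was slightly above C 3. Slow myosin heavy chain, Myh7, measured 10.72, 11.97 and 11.72 (SD 0.66), and a separate probe set of it 9.38, 11.02 and 10.57. The slow regulatory light chain Myl2 measured 10.91, 11.95 and 11.77 (SD 0.56). The slow calcium pump SERCA2, Atp2a2, measured 10.12, 11.35 and 11.16 (SD 0.66), through 1 probe set. Its others were near background, with means of 5.07 and 3.06. Members of the thin filament, the thick filament and the calcium pump thus shared 1 order of the animals. Myoz2, a calcineurin-binding Z-disc protein, and the slow tropomyosin Tpm3 had the same shape, at 10.19, 11.21 and 10.94 and at 11.30, 12.26 and 12.03. Smaller spans came from Myl3 (11.72, 12.32 and 12.18), Csrp3 (11.55, 12.17 and 11.84), Casq2 (8.55, 9.10 and 8.68), Ankrd2 (12.01, 12.28 and 12.16), Mybpc1 (11.48, 11.73 and 11.64) and Pln (6.84, 6.96 and 7.21).

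C 1 was the lowest of the 3 animals for 14 of 14 slow genes, where 54.3% of all genes above background were lowest in C 1. The median deviation from the gene's own C mean was −0.58 in C 1, 0.40 in C 2 and 0.19 in C 3. For the fast list it was 0.08, −0.03 and −0.04, with 13 of 15 genes highest in C 1, against 25.5% of all genes above background. The mean over the slow list was 10.45 in C 1, 11.33 in C 2 and 11.13 in C 3. It ran from 10.71 to 10.96 in Wt, from 10.95 to 11.35 in SKM-KO and from 10.53 to 10.82 in SKM-Tg, so that C 1 lay below and C 2 and C 3 above the Wt and SKM-Tg ranges. C 1 was the lowest of all 13 arrays for 9 of the 14 slow genes, against 833 (12.8%) of the genes above background. For the 4 slow genes with several probe sets above background, every one of those was lowest in the same animal. Within the other groups the slow list had median SDs of 0.184 in Wt, 0.243 in SKM-KO and 0.190 in SKM-Tg, where all genes had 0.272, 0.0874 and 0.181. The members share the muscle piece they came from, so they do not count as separate observations of the animals.

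**Figure D3:**
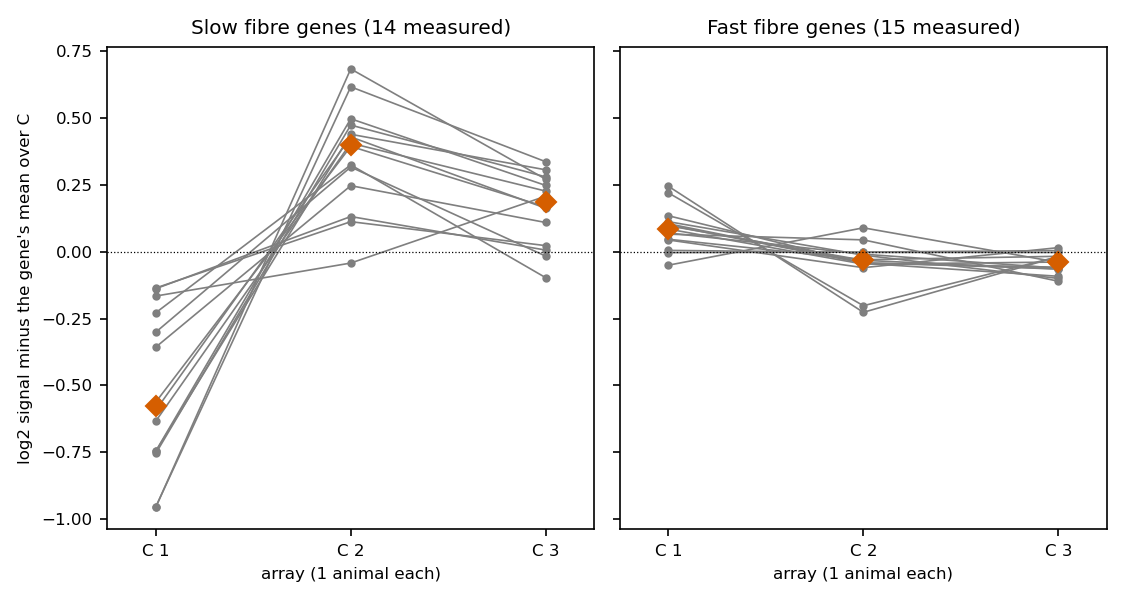
Each gene's log2 signal minus its own mean over group C (vertical axis) on the 3 C arrays (horizontal axis), for the 14 slow fibre genes (left) and the 15 fast fibre genes (right), with list medians as diamonds. The slow medians run −0.58, 0.40 and 0.19 and the fast medians 0.08, −0.03 and −0.04.

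Of the other lists, the liver plasma proteins, near background in 15 of 16 genes, had a span of the same order, from −0.45 in C 3 to 0.53 in C 2. Fatty acid genes were lowest in C 1 in 20 of 23 cases, against 54.3% of all genes above background, with a median deviation of −0.10 there. Glycolysis and glycogen genes were highest in C 1 in 17 of 21, at 0.06, where 25.5% of all genes above background were highest in C 1. Respiratory chain genes differed by little, at −0.02, 0.03 and −0.01. Endothelial markers were lowest in C 1 in 10 of 14, at −0.11, against 54.3% of all genes above background, whose median deviation in C 1 was −0.04. Matrix genes went the other way between C 1 and C 3: 8 of the 8 fibroblast genes above background were lowest in C 3, against 22.2% of all such genes. The list median deviations were 0.12, 0.02 and −0.15, and those of the tendon list were 0.19, 0.01 and −0.13. Among the matrix genes, lumican, Lum, a collagen-binding proteoglycan near background by its mean, had the widest span, at 6.65 in C 1, 5.94 in C 2 and 5.23 in C 3. Macrophage markers were lower in C 3, at −0.22, than in C 1 and C 2, at 0.11 and 0.13. What these shifts contribute to the slow fibre pattern was not tested.

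**Figure D4:**
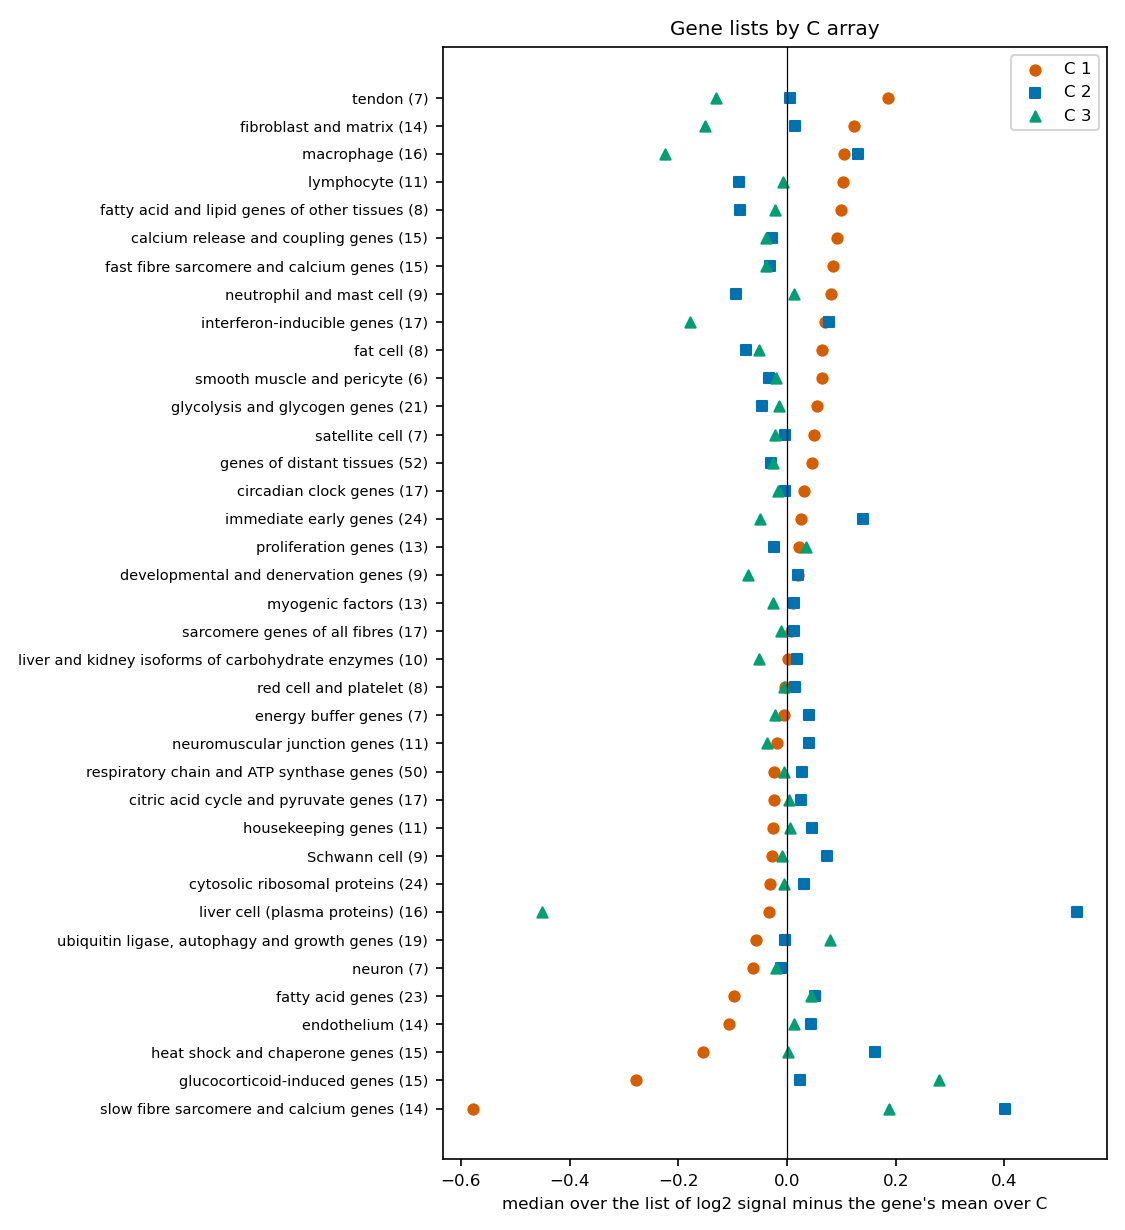
Median over each list of log2 signal minus the gene's own C mean (horizontal axis) in C 1 (circles), C 2 (squares) and C 3 (triangles), with the number of genes measured in brackets. The slow fibre list spreads widest to the left in C 1 (−0.58), and the liver plasma protein list spreads from −0.45 in C 3 to 0.53 in C 2.

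The 24 genes of largest SD, from 0.73 to 1.66, were led by genes outside the sarcomere. They were picked on these SDs, so the values are a description. Atf3 measured 6.91 in C 1, 10.17 in C 2 and 9.08 in C 3, a 9.58-fold span. In C 1 it was below and in C 2 above each of the 10 arrays of the other groups. The inducible heat shock protein Hspa1b had the same order, at 6.33, 8.604 and 7.12, and so did Otud1, a deubiquitinase, at 9.18, 11.15 and 10.08. For Hspa1b this rests on 1 probe set, since its others were near background, with means of 2.72 and 2.82. The heat shock list as a whole had median deviations of −0.15, 0.16 and 0.00, with 13 of 15 genes highest in C 2, as were 43.2% of all genes above background. Haem oxygenase, Hmox1, measured 6.77, 8.42 and 9.12, and sulfiredoxin, Srxn1, 9.17, 10.47 and 10.45, both of them antioxidant response genes and lowest in C 1. Fam107a, an actin-associated and glucocorticoid-responsive gene, measured 5.25, 7.08 and 7.68.

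In several of these genes C 1 differed while C 2 and C 3 were close, among them Snd1, Nnt, Srxn1, Gbp10 and Myc. Snd1, a nuclease subunit of RNA silencing complexes, measured 6.11 in C 1 but 8.98 in C 2 and 8.97 in C 3, and between 8.73 and 9.64 in the 10 other arrays. C 1 was thus far below the other 12 arrays, at a signal near background, through 1 probe set. Nnt, the mitochondrial transhydrogenase, whose gene carries a deletion in the C57BL/6J substrain, measured 9.03 in C 1, 10.46 in C 2 and 10.29 in C 3. It lay between 10.31 and 10.94 in the other groups, and its other probe set above background gave 7.87, 9.47 and 9.30. The labels name the strain without a substrain, and whether that moved with these values was not tested.

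Some of the most variable genes were highest in C 1. Mss51, a muscle mitochondrial regulator, measured 9.91 in C 1, 7.17 in C 2 and 7.90 in C 3, and C 1 was above each of the 10 other arrays. The fat desaturase Scd1 measured 8.79, 7.31 and 7.20, and ran from 6.96 to 10.63 in SKM-KO. Bcl6b (7.55, 6.54 and 5.73), Apold1 (8.05, 7.63 and 6.39), both endothelial genes, and the mitochondrial carrier Slc25a25 (8.17, 7.02 and 6.45) were highest in C 1 and lowest in C 3. Of the 24, 18 were lowest in C 1 and 5 highest in C 1, against 54.3% and 25.5% of all genes above background.

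The remaining gene, Alb, was neither. Serum albumin measured 7.22 in C 1, 8.67 in C 2 and 5.37 in C 3, a 9.87-fold span, although its transcript belongs to liver. Several other liver plasma protein genes, near background by their means, had the same order of animals: Apoa1 at 6.14, 7.10 and 5.61, Rbp4 at 5.87, 6.76 and 5.46, Ttr at 5.79, 6.46 and 5.41, Serpina1b at 5.06, 6.21 and 3.98 and Serpina1a at 2.90, 4.39 and 2.54. Ambp, at 5.36, 4.98 and 5.23, did not. The list means were 5.10 in C 1, 5.69 in C 2 and 4.66 in C 3, and Alb was the 1 of 16 measured members above background. Alb also varied in Wt (4.76 to 7.003) and SKM-Tg (4.54 to 7.02). The source of this RNA was not tested.

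Among the rest of the 24, 2 genes were on the glucocorticoid-induced and immediate early lists, Ddit4 and Myc. Ddit4, an inhibitor of growth signalling, measured 8.67 in C 1, 9.34 in C 2 and 10.19 in C 3, and the arrestin relative Arrdc3 7.9995, 8.46 and 9.42. The glucocorticoid-induced list had median deviations of −0.28, 0.02 and 0.28 and was highest in C 3 in 13 of its 14 genes above background, against 31.3% of all such genes. Within it, metallothionein Mt1 measured 9.41, 10.39 and 10.68 and Cebpd 8.13, 9.06 and 9.53, while Klf9 held at 10.83, 10.81 and 10.84. The 17 immediate early genes above background had a median SD of 0.463 (0.370 over all 24 measured), and 7 had an SD of 0.5 or more, but without a common order: Myc was low in C 1 (6.30, 7.64 and 7.57) and Nr4a1, an orphan receptor, low in C 3 (8.24, 7.71 and 6.86). Npr3 (5.96, 7.58 and 7.21), Gbp10 (7.97, 9.34 and 9.33), Fnip2 (5.72, 7.21 and 6.78), Nupr1 (8.30, 9.74 and 9.35) and Ell (6.35, 7.78 and 7.39) were again lowest in C 1. The 24th gene, Arrdc3, had an SD of 0.73 and the next, Ifrd1, 0.72.

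**Figure D5:**
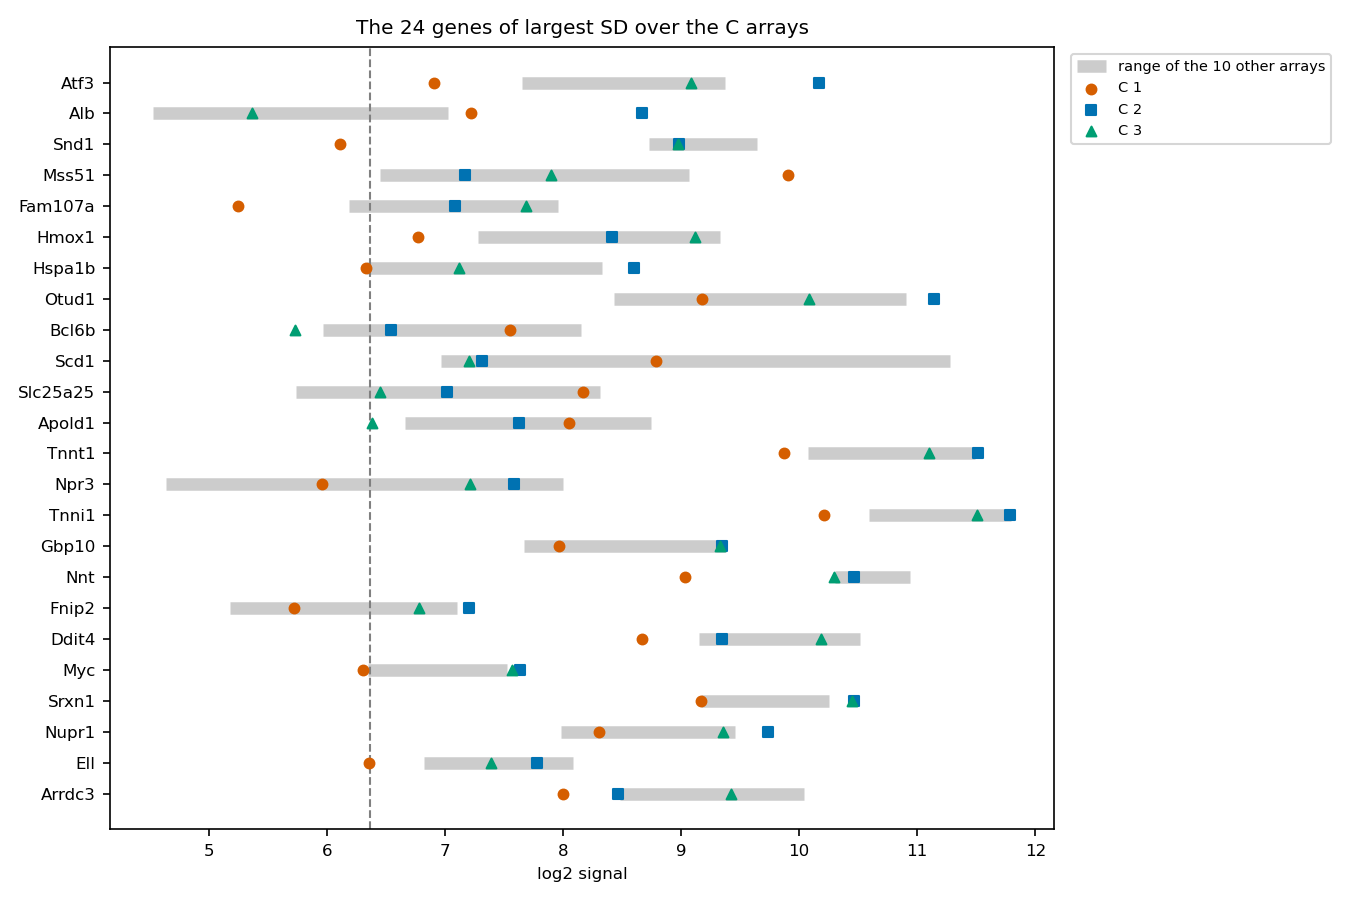
Log2 signal (horizontal axis) of the 24 genes with the largest SD in group C, with C 1 as circles, C 2 as squares, C 3 as triangles, the range of the 10 other arrays as grey bars and the near-background bound of 6.36 dashed. C 1 lies left of the other C arrays in 18 genes, and for Snd1 it lies at 6.11, left of the grey bar that begins at 8.73.

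The spread of these 24 genes in the other groups did not enter their choice. Among the genes above background, 19 of the 24 were in the top 5% by SD in SKM-KO, 11 in SKM-Tg and 4 in Wt. Their median SDs were 0.419, 0.406 and 0.386, against 0.0874, 0.181 and 0.272 for all genes. Of the 5 genes with several probe sets above background, 4 had the same lowest animal in each, and in Scd1 the probe sets differed on whether C 2 or C 3 was lowest. Of the 8 genes that differed by 1 or more between C 2 and C 3, all were higher in C 2: Alb, Hspa1b, Apold1, Fos, Atf3, Otud1, H2-Q4 and Egr1. Fos measured 7.93 in C 1, 8.80 in C 2 and 7.58 in C 3, and Egr1 7.93, 7.79 and 6.76.

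Group C was set against Wt, the other group with no manipulation named in its label, to see where the levels of C differed from those of Wt. Of 10411 genes tested with limma, 1 (0.00961%) passed a Benjamini-Hochberg adjusted p of 0.05. Rab4a, a small GTPase of endosome recycling, measured 8.41, 8.38 and 8.31 in C and between 9.18 and 9.70 in Wt. Its difference was −1.06 (SE 0.14, 95% interval −1.36 to −0.76, limma adjusted p = 0.0460). It lay between 8.52 and 8.87 in SKM-KO and between 9.11 and 9.40 in SKM-Tg. At an unadjusted limma p under 0.05 there were 2891 of the 10411 genes, so the single call does not mean that C and Wt were alike elsewhere. The count changed with each C or Wt array left out. Without Wt 3, 4119 of the 10411 genes passed, 1746 higher and 2373 lower in C. With any 1 of the other C or Wt arrays left out instead, 0 passed.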

How the data were processed

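RNA of quadriceps was amplified, biotin-labelled and hybridised to Affymetrix arrays, per the labels' protocols. The deposited values are log2 signals made by the authors with RMA, per the submitters' processing notes, and the software version is not given in the sources used here. Of 45141 probe sets, 28898 carried 1 symbol, 551 several and 15588 none here, and 104 were controls. The brightest probe set of each of 17097 genes over 13 arrays was kept. Genes were ranked by mean over C (Python 3.11.15, pandas 2.3.3), and SDs are over n = 3. C minus Wt was fitted with limma 3.58.1 (R 4.3.3) on all 13 arrays, on genes with a mean of at least 4.90. The fit was also run on simulated data in which each gene had the same spread in every group. In the data the median SD was 0.0870 in C and 0.272 in Wt, so the simulated run does not cover unequal spread. The p-values test the difference in means between C and Wt against the spread between arrays within groups, pooled over all groups. The groups differed in that spread, which limits these p-values. The number of arrays limits the precision.

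The members and the 38 lists (578 of 667 symbols matched) were chosen with earlier results of these data known. Named genes were the 20 brightest and the next, up to 6 brightest, 3 dimmest and 3 most variable of each list, the 24 most variable above background, genes past the limma threshold, and Trp53inp2. Myl2, Myh7, Uqcrq, Ambp, Ifrd1, Fos, Egr1 and H2-Q4 were added after their values were seen. Alternatives were other probe-set rules, normalizations, background bounds and filters, and leaving out each array.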

Additional observations from a re-analysis of the deposited data

How the results depend on the processing

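Under probe sets chosen on the C arrays, quantile normalization and median centring, the share of listed genes in the top 100, the near-background count, the median SD and the count of genes with an SD of 0.5 or more stayed within their spread or 1.5 times. The share was 63 with the mean of probe sets and 84 among the 50 brightest genes. With the median of all probe sets as the bound, 6715 genes were near background. Leaving out 1 C array in turn, the median SD ran from 0.0539 to 0.0862, the count at 0.5 or more from 29 (without C 1) to 150 (without C 3), and that of slow genes from 0 (without C 1) to 8. The settings for the slow genes were chosen after seeing the data, and under the other 4 of them 14 slow genes were lowest in C 1. Without C 1, 17 of the 24 most variable genes moved in SD. Of 373 named genes, 132 moved in mean with the mean of probe sets. C minus Wt called 0 genes with no filter, 0 after quantile normalization, 0 on C and Wt arrays alone (1391 at an unadjusted p under 0.05), 2 with the mean of probe sets (Wdfy1 and Rab4a), and 0 to 4119 leaving out 1 array. The cause was not tested. No paired analysis was possible because the labels give the groups no shared replicate numbers. Signal over background limits dim genes, and 3 animals limit every SD.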
